A study of Mus musculus with 7 samples.

Results

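The genes described here encode the proteins of the cytosolic ribosome, the particle that translates nuclear messenger RNA. They were chosen by symbol: protein-coding genes whose names start with Rpl or Rps and a number, together with Rpsa, Rplp0, Rplp1 and Rplp2, without the S6 kinases, Rps19-binding proteins, Rps27a and pseudogenes. The rule took 84 of 21938 protein-coding genes of the mouse annotation, of which 46 encode large-subunit proteins (the stalk proteins Rplp0, Rplp1 and Rplp2 included), 30 encode small-subunit proteins and 8 are paralogs or like-genes of these. The members lie on 19 chromosomes, and 14 of them are on chromosome 7.

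Chromatin immunoprecipitation with sequencing (ChIP-seq) was performed on gastrocnemius muscle of Wild Type male C57BL/6J mice, 5 months old, kept on chow under alternating light and dark. BMAL1, the activating arm of the circadian clock, and RNA polymerase II (RNAP2) were precipitated at Zeitgeber time (ZT) 4, and the repressor REV-ERBα at ZT8, each in 2 replicates, and 1 input sample is among the samples. ZT counts hours from lights on, so each factor was seen at a single time and nothing here describes a rhythm. No mutant and no treated group is among these samples.

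Each library was deposited as a list of peaks, the intervals where reads were more frequent than in input, with the fold enrichment and the −log10 p of each. BMAL1 lists held 34737 and 177669 peaks, REV-ERBα lists 28881 and 29934, and RNAP2 lists 87870 and 168821. A region is a set of overlapping peaks from both replicates of a factor, and its strength is the lower of the 2 replicates' −log10 p. There were 2742 BMAL1, 1263 REV-ERBα and 10752 RNAP2 regions, and 550 shared sites, where 3 or all 4 of the lists for the clock factors had a peak. Of 10 genes that mark muscle fibers, 10 had an RNAP2 region within 10 kb, with a median strength of 31.1, whereas 3 of 10 markers of blood, vessel, nerve and connective tissue cells had a region and the liver and islet genes Alb and Ins2 had none. With 2 replicates per factor and different antibodies, no test between factors is possible, so shares of genes are compared below as descriptions and without p-values.

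Ribosomal protein genes are short, transcribed in every cell, and produce messages that belong to the most abundant in most tissues. Their messages begin with a run of C and T bases, the 5′ terminal oligopyrimidine (TOP) tract, through which the kinase mTOR adjusts their translation to nutrients. In skeletal muscle, making ribosomes sets the capacity for protein synthesis and growth.

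RNAP2 was present at nearly all of these genes. A region in both replicates lay within 10 kb of an annotated transcription start site (TSS) of 79 of 84 members (94%), against 37.9% of the 21854 other protein-coding genes. Within 1 kb of a TSS, the counts were 78 of 84 members (92.9%) and 30.3% of the other genes. Of the other genes that reached from start to end at most 5 kb, a length like that of the members, 26.9% had a region within 10 kb.

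The RNAP2 regions of the members were also stronger than most. The median strength was a −log10 p of 8.12 over the 79 members with a region (interquartile range 5.73 to 11.0) and 4.73 over the 8291 other genes that had a region (2.97 to 7.74). The median fold enrichment was 4.83 and 3.45, respectively, and 65 of the 79 members exceeded the median of the other genes. A strength of at least 10 was reached by 30 of the 79 members (38%) and by 15.5% of the other genes. The median member stood at the 76.9th percentile of the other genes, and the median muscle fiber marker (31.1) was above every member.

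**Figure D1:**
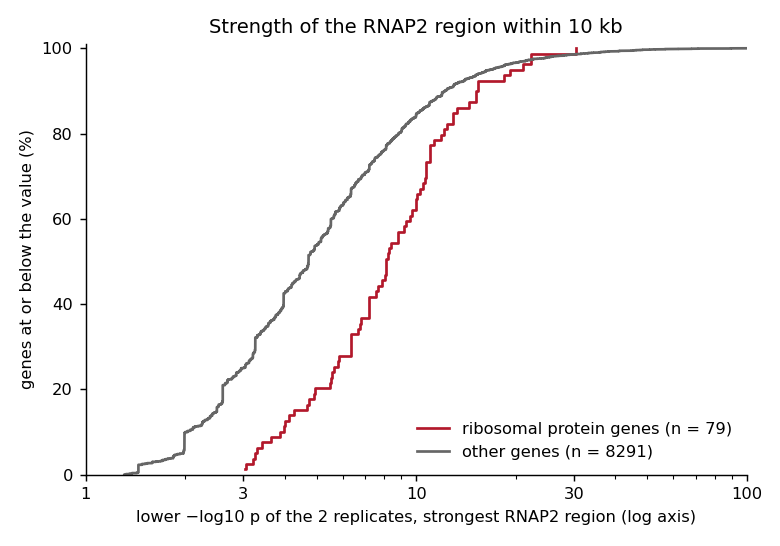
Cumulative share of genes (%) against the lower −log10 p of the 2 RNAP2 replicates for the strongest region within 10 kb, on a log axis, for 79 ribosomal protein genes and 8291 other genes with a region. The ribosomal protein genes lie to the right of the other genes except above about 20, where the curves meet, with medians of 8.12 and 4.73, and none of them lies below 3.

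Both replicates showed the difference. The strongest promoter peak, taken within 1 kb of a TSS, had a median −log10 p of 14.9 and 7.75 in the lists of replicates 1 and 2 for the members, and 8.18 and 4.73 for the other genes. A promoter peak with a q of at most 0.05 was found in replicate 1 for 96.2% and in replicate 2 for 75.9% of the 79 members, against 70.3% and 41.6% of the other genes. Replicate 1 gave the higher −log10 p at 68 of the 78 members with a promoter peak in each, so the scale of the lists differed while the members stood above the other genes in both.

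RNAP2 sat on the start sites themselves. The summit of the strongest promoter peak was a median of 0.5 bp from the nearest TSS in replicate 1 and 6 bp downstream of it in replicate 2, and the middle 50% of members lay between −37.5 and 17.75 bp and between −13.5 and 29.75 bp. For the other genes the corresponding limits were −96 and 50 bp, and −98 and 58 bp. Peaks covered a median of 12.0% of the gene from start to end in replicate 1 and 11.3% in replicate 2, against 1.92% and 3.80% for the other genes. Gene length moved with this value: the median length was 3368 bp for the members and 21936 bp for the other genes, and the other genes of at most 5 kb were covered to 8.06% and 9.31%.

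**Figure D2:**
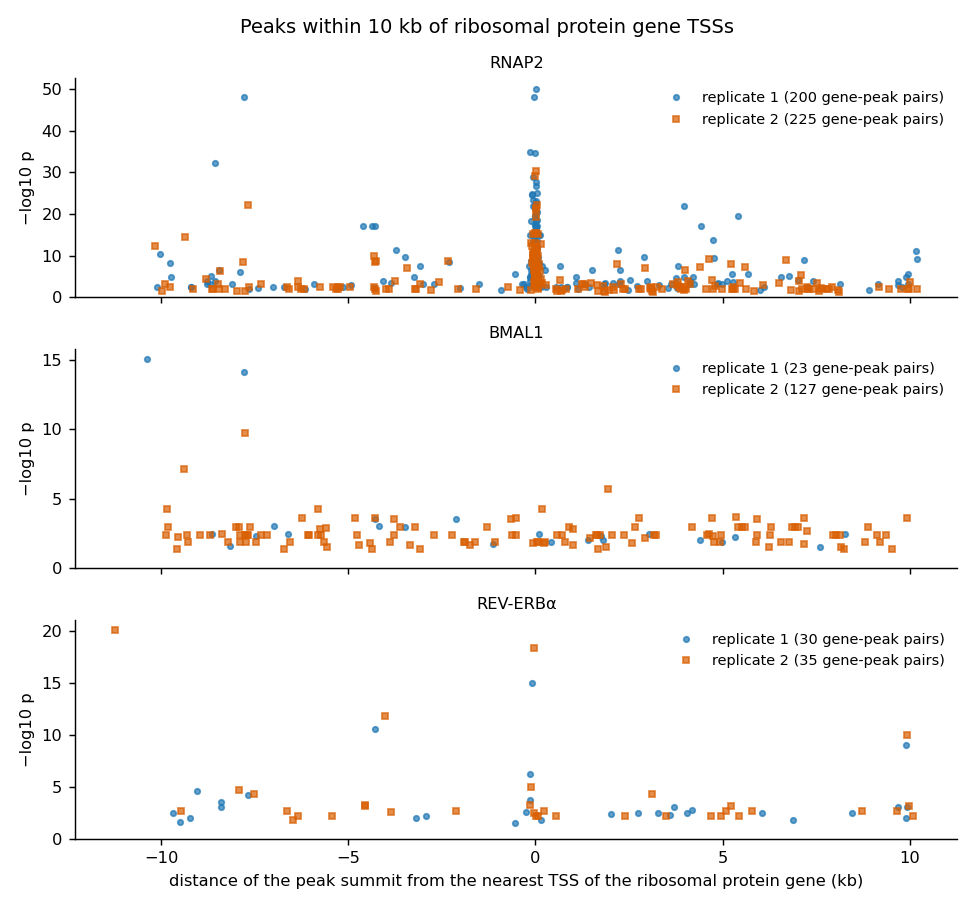
Distance of each peak summit from the nearest TSS of the ribosomal protein gene (kb) against the −log10 p of the peak, for RNAP2, BMAL1 and REV-ERBα, with each replicate in its own color. RNAP2 peaks pile up at the TSS to a −log10 p of 50.2, whereas BMAL1 peaks are spread over the window and REV-ERBα has 2 members, Rpl19 and Rpl22, with a peak above 4.9 in each replicate at the start.

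The strongest RNAP2 region belonged to Rpl3, whose product reaches to the peptidyl transferase center of the large subunit. Rpl3 (chr15:80077791-80091868, minus strand, mm10) had promoter peaks whose −log10 p was 50.2 and 30.4 in replicates 1 and 2, at fold enrichments of 15.8 and 11.0. Rps2, a small-subunit protein near the messenger RNA entry site, followed with a −log10 p of 48.2 and 22.3. Rps12, another small-subunit protein, had 26.8 and 21.1. In these 3 genes the lower replicate still lay above 21, beyond the 95th percentile of the other genes' promoters.

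Rps27, a zinc finger protein of the small subunit, went the other way between replicates, with a −log10 p of 18.5 and 29.1. Rps6, the substrate of the S6 kinases, had 27.8 and 15.4. Rpl37 had 23.4 and 15.1, and Rpl8, which lies close to the catalytic center, had 20.9 and 15.1. Replicate 2 was the higher list only for a minority of members, among them Rps27, Rps15 (13.3 and 21.4) and Rpl28 (8.29 and 13.0).

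The stalk is the part of the large subunit that recruits elongation factors. Rplp0, its base, reached 34.7 in replicate 1 and 15.4 in replicate 2 on the −log10 p scale. Rplp1 had 34.9 and 12.4, and Rplp2 had 14.0 and 12.1. The 3 stalk genes had a median strength of 12.4, against 7.22 for the other 43 large-subunit genes and 8.84 for the 27 of 30 small-subunit genes with a region. The ranges overlapped, from 12.1 to 15.4 for the stalk and from 3.26 to 30.4 for the other large-subunit genes.

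**Figure D3:**
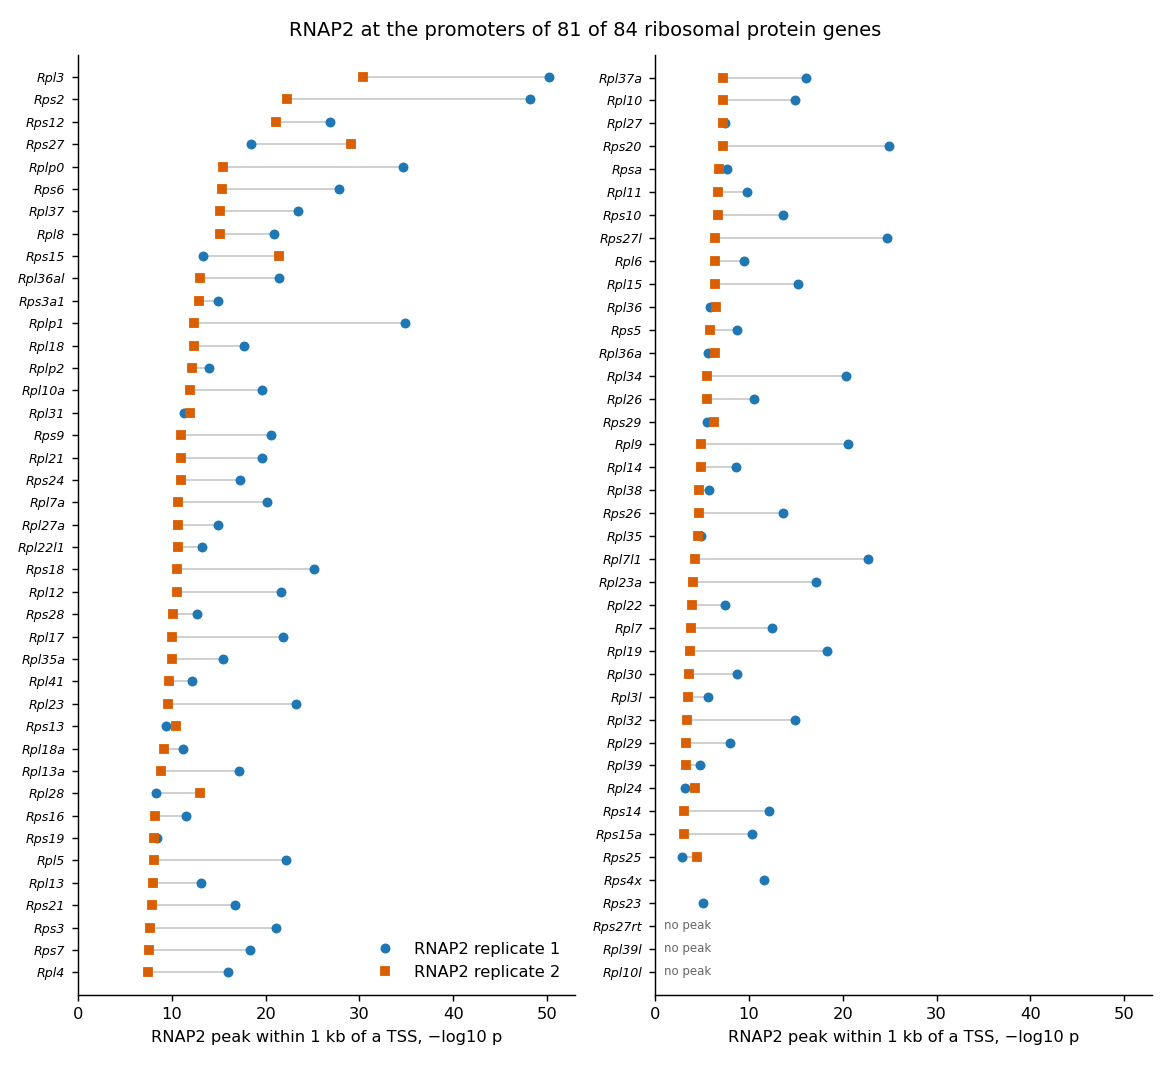
Highest −log10 p of an RNAP2 peak within 1 kb of a TSS for 81 of the 84 genes, ordered by the lower replicate, with replicate 1 as circles, replicate 2 as squares and a line joining them. Values fall from 50.2 and 30.4 at Rpl3 to 2.85 and 4.47 at Rps25, while Rps4x and Rps23 have a peak in replicate 1 alone and Rps27rt, Rpl39l and Rpl10l have none.

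At the low end, Rps15a had a promoter −log10 p of 10.4 and 3.05, and Rps14 had 12.1 and 3.06. Rpl39 had 4.79 and 3.26, and Rpl29 had 7.94 and 3.31. These genes were among the weakest by the region within 10 kb. Each was lower in replicate 2 and still had a peak in both lists. By the promoter peak, Rps25 (2.85 and 4.47) and Rpl24 (3.20 and 4.22) were also low, with replicate 1 the lower list.

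Rps23 and Rps4x are small-subunit genes without an RNAP2 region in both replicates. Each had a promoter peak in replicate 1, with a −log10 p of 5.10 for Rps23 and 11.6 for Rps4x, and none within 1 kb in replicate 2. The value at Rps4x, the X-linked gene for this protein, was therefore above the replicate 1 median of the other genes (8.18) and rested on 1 library.

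Several members owe their strongest region to a neighbor. The region ranked after that of Rpl3, with values of 48.2 and 22.3, lies at chr17:24719635-24720422. It counts for both Rps2 and Rpl3l, but its summit is at Rps2. Rnf151 starts 53 bp from Rps2 on the opposite strand, so these lists cannot assign the region to Rps2 or Rnf151. The strongest region within 10 kb of Rpl18 was at Dbp, that of Rps25 at Slc37a4, that of Rpl35 at Arpc5l, that of Rpl19 at Cacnb1, that of Rpl24 at Zbtb11 and that of Rpl4 at Snapc5. When each region was given only to the gene with the nearest TSS, 77 members kept a region, with a median strength of 7.86.

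The paralogs of subunit genes divided into those with and without RNAP2. Rpl10l and Rpl39l, which replace Rpl10 and Rpl39 in the testis, had no promoter peak in either replicate, whereas Rpl10 had a −log10 p of 14.9 and 7.22 and Rpl39 had 4.79 and 3.26. Rps27rt, a retrogene copy of Rps27, had no promoter peak either, and its region of strength 3.21 belonged to Osbpl10. Rpl3l, the paralog made in heart and skeletal muscle, had weak promoter peaks, at most 5.65 and 3.51, against 50.2 and 30.4 at Rpl3. These Rpl3l summits lay at different positions, −539 and 129 bp from the nearest TSS. A fold enrichment of 4.17 and 2.93 at Rpl3l stood beside 15.8 and 11.0 at Rpl3.

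Other paralogs had RNAP2 at their promoters. Rpl22l1 had a −log10 p of 13.3 and 10.7, and Rpl22 had 7.49 and 3.97, so the groups of replicates did not overlap. Rpl36al had 21.5 and 13.0 against 5.65 and 6.35 at Rpl36a, again without overlap. Mgat2 starts 74 bp from Rpl36al on the opposite strand, so these lists cannot assign the Rpl36al peaks to that gene alone. Rps27l had 24.7 and 6.35 and Rps27 had 18.5 and 29.1, and Rpl7l1 had 22.7 and 4.27 against 12.4 and 3.87 at Rpl7. In both of these pairs the replicates of the 2 genes overlapped.

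Many ribosomal protein genes carry small nucleolar RNAs, the guides of ribosomal RNA modification, in their introns. Among the 79 members with an RNAP2 region, 30 (38.0%) contained an annotated small nucleolar RNA gene on the same strand, against 1.57% of the other genes. The 30 host genes had a median strength of 9.01 and the 49 members with a region and no such gene had 7.22. Some of these regions belonged to a neighbor. Within 1 kb of a TSS the medians were 9.01 for the 30 host genes and 6.71 for 48 members without such a gene. Rpl4 held 5 and Rpl13a held 4, with strengths within 1 kb of 7.44 and 8.84.

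The starts of these genes were read from RefSeq (GRCm38.p6), whose promoter table covered 65 of the 84 members with 77 promoters, each running from 250 bases before the start to 50 after. The table had no entry for 19 members, including Rpl3 and Rpl8. The windows below are shown because a run of C and T at the start recurs among the members. Each has 30 bases, 5′ to 3′ on the gene's strand, 15 before the start and 15 from it on, with the longest run of C and T in capitals. The first set has long runs.

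Rpl7a, chr2:26910792-26910821, plus strand: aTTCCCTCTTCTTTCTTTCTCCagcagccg
Rpl27a, chr7:109519180-109519209, plus strand: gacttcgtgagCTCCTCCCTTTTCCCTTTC
Rpl4, chr9:64173372-64173401, plus strand: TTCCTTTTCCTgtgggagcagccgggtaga
Rps6, chr4:86857353-86857382, minus strand: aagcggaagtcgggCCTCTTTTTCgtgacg
Rplp2, chr7:141447636-141447665, plus strand: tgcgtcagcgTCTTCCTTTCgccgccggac
Rpl18, chr7:45718056-45718085, plus strand: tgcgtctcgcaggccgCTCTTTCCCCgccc
Rps27, chr3:90213634-90213663, minus strand: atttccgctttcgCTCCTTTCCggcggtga

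The same window is shown for 3 starts with short runs: Rps2, which had some of the strongest RNAP2, Rpl3l, which had weak RNAP2, and the testis paralog Rpl10l, which had none.

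Rps2, chr17:24720048-24720077, plus strand: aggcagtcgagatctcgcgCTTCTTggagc
Rpl3l, chr17:24727811-24727840, plus strand: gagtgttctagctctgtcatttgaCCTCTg
Rpl10l, chr12:66284387-66284416, minus strand: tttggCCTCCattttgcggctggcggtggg

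The runs in the printed windows were 21 bases at Rpl7a, 19 at Rpl27a, 11 at Rpl4, 10 at Rps6, Rplp2 and Rpl18, 9 at Rps27, 6 at Rps2 and 5 at Rpl3l and Rpl10l. Between 30 bases before and 50 after the start, a run of at least 8 C or T bases on the gene's strand was present in 53 of the 77 member promoters (68.8%), in 25.5% of 8284 promoters of other genes with an RNAP2 region and in 29% of all 32851 promoters. By gene, 50 of the 65 members had such a run. Rps2 and Rpl3l were among these 50, by a run not contained in the printed bases, and Rpl10l was not. RNAP2 medians were close with and without it: the 48 of these genes with a promoter region had a median strength of 8.06 and the 12 of 15 genes without a run had 7.92.

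Other short motifs were counted on both strands of the 300 bases. The core of ETS factor sites, CCGGAAG, was in 35.1% of member promoters, 17.9% of those of other RNAP2 genes and 8.86% of all. AAGATGG, the core of YY1 sites, was in 15.6%, 7.36% and 6.34%. The GC box GGGCGG, which binds Sp1-type factors, was about as frequent as in other RNAP2 genes, at 59.7% and 63.2%, and was in 35.7% of all promoters. The TATA box TATAAA was in 9.09%, 7.27% and 13.6%.

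The letters TCGCGAGA were in 12 of the 77 member promoters (15.6%), in 2.34% of those of other RNAP2 genes and in 0.995% of all promoters. The 11 genes that held them were Rpl7a, Rpl10a, Rpl12, Rpl26, Rpl27a, Rpl35, Rps3a1, Rps6, Rps15a, Rps19 and Rps28. All 11 had an RNAP2 promoter region, with a median strength of 10.5, and the 49 of the other 54 members with a region had a median of 7.64. The sites of 4 genes are shown with 10 bases on each side, to show the element, in capitals, with its flanks.

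Rps6, chr4:86857399-86857426, minus strand: ccggctgttcTCGCGAGAacttagagcg
Rpl12, chr2:32961650-32961677, plus strand: ccagcggttcTCGCGAGAgctgagcttt
Rpl10a, chr17:28328526-28328553, plus strand: cgggcaactcTCGCGAGAacgcgggctc
Rpl26, chr11:68901532-68901559, plus strand: tccgagactcTCGCGAGAtctcgcggca

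The element begins at position −49 from the start at Rps6, −52 at Rpl12, −29 at Rpl10a and −24 at Rpl26. In all 4 the letters before it complete the same element on the opposite strand, which was counted once per promoter. Over the 11 genes its place varied from −189 at Rpl35 to 2 at Rps28, just after the start. A match describes the sequence and not binding. Each motif was counted on its own, and some can overlap by a few letters, as CCGGAAG with AAGATGG or AGGTCA with CACGTG.

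**Figure D4:**
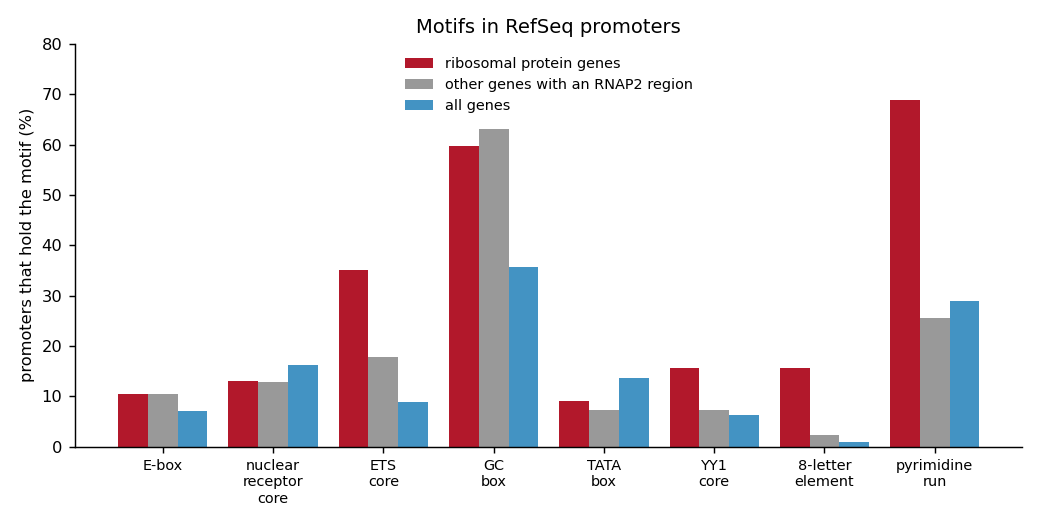
Share of RefSeq promoters (%) that hold each motif, for 77 promoters of ribosomal protein genes, 8284 of other genes with an RNAP2 region and all 32851. The pyrimidine run (68.8%, 25.5% and 29%), the ETS core and the 8-letter element stand higher in the ribosomal protein genes, while the E-box (10.4%, 10.5% and 7.15%) and the nuclear receptor core (13%, 12.9% and 16.3%) do not.

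The clock factors were next. BMAL1 binds the E-box CACGTG with CLOCK, and REV-ERBα binds AGGTCA after an A and T rich stretch. CACGTG was in 8 member promoters of 6 genes (10.4%, against 10.5% of other RNAP2 genes), namely Rpl13a, Rpl14, Rpl19, Rpl23, Rpl34 and Rps19. None of these 8 windows overlapped a BMAL1 peak in either replicate. Of the 867 E-box promoters of other RNAP2 genes, 4.61% and 4.84% did in replicates 1 and 2, a share at which 8 windows are too few to tell the groups apart. AGGTCA was in 13% of member promoters and 12.9% of the others.

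BMAL1 was seldom found at these genes. A region in both replicates lay within 10 kb of 3 members (3.57%), Rpl12, Rpl18 and Rpl23, against 6.54% of the 8291 other genes with an RNAP2 region. Here and below, member shares for the clock factors are over all 84 genes, of which 79 had an RNAP2 region themselves. Within 1 kb there was 1 member, Rpl23, against 1.56%, and 2 members, Rpl12 and Rpl23, were the nearest gene to their region, against 5.29%. Since 1 gene is 1.19% of the members, these counts lie near the background. The other genes of at most 5 kb had a BMAL1 region in 3.64%, close to the members.

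The regions at Rpl12 and Rpl23 were weak. At Rpl23 (chr11:97777750-97778592) the −log10 p was 1.89 and 1.81 and the fold enrichment 1.85 and 1.88, which ranked 1979th of the 2742 BMAL1 regions. It lay beside an alternative annotated TSS, 4232 and 4044 bp inside the gene from the RefSeq start that carries the E-box. At Rpl12 (chr2:32963983-32965001) the values were 2.01 and 1.83, over an exon 1805 bp from the nearest TSS. The q of all 4 peaks was 1, a −log10 q of 0, so neither region passed a q of 0.05.

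REV-ERBα had a region in both replicates within 10 kb of 4 members (4.76%), Rpl7l1, Rpl18, Rpl19 and Rpl22, against 7.76% of the other genes. Within 1 kb there were 2, Rpl19 and Rpl22, against 4.5%, and the same 2 were the nearest gene to their region, against 5.21%. The other genes of at most 5 kb had a region in 9.74%.

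Rpl19, a large-subunit protein, carried the strongest clock-factor binding at the promoter of a member. Its REV-ERBα region (chr11:98026596-98027150) reached a −log10 p of 15.02 and 18.4, at fold enrichments of 5.28 and 6.27 and −log10 q values of 10.1 and 13.3. It ranked 94th of the 1263 REV-ERBα regions, whose median strength was 2.50. RefSeq gives the gene more than a single start, and both summits fell just before the downstream start, at −102 and −50 bp. The 250 bases before that start are shown because they hold both summits and the E-box, in capitals.

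Rpl19, chr11:98026674-98026923, plus strand: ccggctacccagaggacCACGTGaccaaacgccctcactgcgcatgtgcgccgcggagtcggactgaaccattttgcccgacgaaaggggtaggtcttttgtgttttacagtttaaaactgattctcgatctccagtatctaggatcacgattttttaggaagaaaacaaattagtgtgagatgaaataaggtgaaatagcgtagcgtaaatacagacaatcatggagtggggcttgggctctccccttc

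Counting back from the start, the E-box begins at −233 from this start and at −19 from the upstream one, and the REV-ERBα summits lie 126 and 178 bp downstream of its last base. AGGTCA is not among the letters of this window on either strand. No BMAL1 peak lay within 1 kb of Rpl19 in either replicate. RNAP2 at the same promoter had a −log10 p of 18.3 and 3.76, a wide gap between replicates.

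Rpl22 was the other promoter with REV-ERBα in both replicates. Its product belongs to the large subunit, and Rpl22l1 is its paralog. The region (chr4:152325072-152325872) reached a −log10 p of 6.26 and 4.99, at fold enrichments of 3.55 and 3.24 and −log10 q values of 1.83 and 0.732, so replicate 2 missed a q of 0.05. It ranked 243rd of 1263. RefSeq gives Rpl22 more than a single start. The summits were 130 and 102 bp before the downstream start, within the bases shown, which hold neither CACGTG nor AGGTCA. From the upstream start the summits lay 1160 and 1188 bp downstream. The promoter of that upstream start, not shown, holds AGGTCA, read as TGACCT on the gene's strand and beginning at −249.

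Rpl22, chr4:152325476-152325725, plus strand: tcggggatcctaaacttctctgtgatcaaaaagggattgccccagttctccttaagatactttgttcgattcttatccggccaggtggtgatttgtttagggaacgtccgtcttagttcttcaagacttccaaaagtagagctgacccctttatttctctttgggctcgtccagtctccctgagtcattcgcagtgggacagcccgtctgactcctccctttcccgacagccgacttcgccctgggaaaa

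Rpl18 lies near Dbp, a clock-controlled gene. Rpl18 was the 1 member with a shared site within 10 kb, against 2.62% of the other genes, and it had 3 of them. No member had a shared site within 1 kb, against 1.21%, and none was the nearest gene to such a site, against 1.86%. The first site spans chr7:45703840-45706963, at Car11 and Dbp, where the −log10 p of BMAL1 was 15.1 and 8.25 and that of REV-ERBα 9.78 and 20.2. The second, at chr7:45707402-45708304, had BMAL1 values of 14.1 and 9.72 and REV-ERBα values of 4.21 and 4.67.

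Dbp, a transcription factor driven by the clock, starts 7568 bp from Rpl18, and both of these sites are at its promoter or that of Car11. The third site (chr7:45708896-45713168) is over an exon of Sphk2, a sphingosine kinase gene that starts 69 bp from Rpl18 on the other strand, with BMAL1 values of 3.54 and 3.60 and REV-ERBα values of 10.6 and 11.8. At the promoter of Rpl18 itself, REV-ERBα had peaks of 2.54 and 3.29 that did not overlap between replicates, BMAL1 had none, and RNAP2 had 17.7 and 12.4. The REV-ERBα region of Rpl7l1, with 8.997 and 10.004, was 9937 bp away at the promoter of 2310039H08Rik.

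In single lists a smaller share of members than of the other genes had a clock-factor peak. Within 10 kb, a BMAL1 peak was found for 23.8% of members in replicate 1 and 76.2% in replicate 2, against 38.8% and 90.5%, and a REV-ERBα peak for 26.2% and 31%, against 39.9% and 42.7%. Window length moved with these shares: the windows around all annotated TSSs of a gene had a median of 21.1 kb for members and 28.0 kb for the other genes. Against the other genes of at most 5 kb, whose windows had a median of 20.1 kb, the shares were nearer, at 24% and 83.2% in the BMAL1 lists and 30.6% and 32.9% in those of REV-ERBα. Per Mb of window, members had 12.4 and 68.4 BMAL1 peaks and these short genes 13.4 and 84.1, and for REV-ERBα the values were 16.1 and 18.8 against 19.4 and 21.2.

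At promoters the members' shares were again the lower ones. Within 1 kb, a BMAL1 peak was found for 2.38% of members in replicate 1 and 17.9% in replicate 2, against 10.5% and 36.5% of the other genes. A REV-ERBα peak was found for 7.14% and 9.52%, against 13.4% and 14.8%. No BMAL1 or REV-ERBα peak of any list lay within 1 kb of 61 of the 84 members (72.6%), against 47.9% of the other genes. The comparison with genes of at most 5 kb was made within 10 kb and not at this distance. Members with an RNAP2 region had a median length of 3368 bp and a median of 6 annotated starts. The other genes had 21936 bp and 5. The part of gene length and of the number of annotated starts in these shares was not tested. Within 10 kb, the 10 muscle fiber markers had a BMAL1 region in both replicates in 8 cases and a REV-ERBα region in 9. Some of these regions were nearer to another gene. The member counts by that measure were 3 and 4 of 84.

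**Figure D5:**
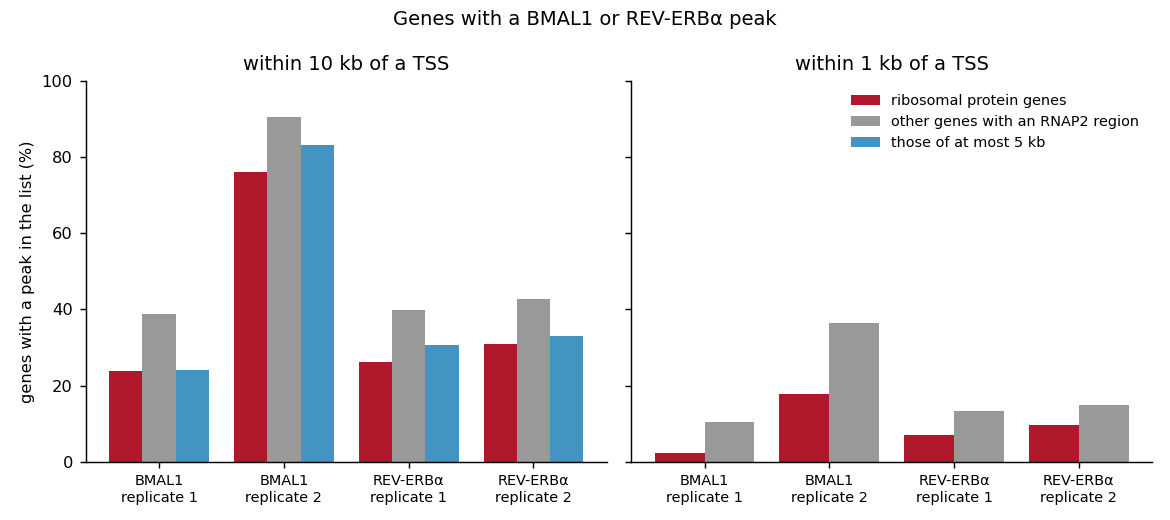
Percent of genes with a BMAL1 or REV-ERBα peak in each replicate list, within 10 kb (left) and within 1 kb (right) of a TSS, for 84 ribosomal protein genes, 8291 other genes with an RNAP2 region and, on the left, those of at most 5 kb. The ribosomal protein genes are the lowest bar in every list, by a small margin beside the short genes.

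Most promoter peaks of the members were of low rank. Rps10 was the member besides Rpl23 with a promoter BMAL1 peak in each replicate, with a −log10 p of 2.48 and 2.98 at different positions, 108 and 887 bp from the TSS. Rpl3 had a BMAL1 peak of 4.23 in replicate 2 alone. Rpl3l had a REV-ERBα peak of 3.78 in replicate 1 alone, and apart from Rpl19 and Rpl22 no member had a promoter REV-ERBα peak above that value.

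Ribosomal proteins that the naming rule left out were much like the members. A list of 4 such genes, among them Fau and Rps27a, which encode ribosomal proteins fused to a ubiquitin-like or ubiquitin part, and Rack1, a scaffold on the small subunit, had an RNAP2 region at every gene, with a median strength of 7.20. The region of Fau, within 1 kb of its TSS, had its summit nearer to the start of another gene. None of the 4 had a BMAL1 or REV-ERBα region in both replicates.

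Of 15 translation factor genes and other genes with TOP messages, 11 had an RNAP2 region (median strength 7.22), 2 a BMAL1 region and 3 a REV-ERBα region. Among all genes outside the ribosomal protein set, 37.9% had an RNAP2 region within 10 kb. Of these RNAP2 genes, 6.54% had a BMAL1 region and 7.76% a REV-ERBα region. The list is short, and no test was made. Eef1d, a subunit of the factor that recharges elongation factor 1A, had a REV-ERBα region 64 bp from its TSS with a −log10 p of 46.9 and 32.6, more than at any member. Eef1a2, the elongation factor 1A of muscle and neurons, had 5.41 and 4.35 for REV-ERBα, 752 bp from its TSS. Its BMAL1 region of 2.995 and 2.40 was a separate interval, 7920 bp from the TSS. Eef1a2 was also the nearest gene to 1 shared site, where at least 3 of the 4 clock-factor lists had a peak. The widely expressed Eef1a1 had a weak REV-ERBα region of 2.72 and 2.64. Larp1, which holds the cap of TOP messages, had a BMAL1 region of 2.48 and 1.87.

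Of 25 ribosome biogenesis genes, 20 had an RNAP2 region (median strength 5.88), 2 a BMAL1 region and 1 a REV-ERBα region. The shares among genes outside the ribosomal protein set were 37.9% for RNAP2 and, among RNAP2 genes, 6.54% for BMAL1 and 7.76% for REV-ERBα. The BMAL1 regions were weak, at 2.01 and 1.40 for Polr1d, a subunit of RNA polymerases I and III, and 2.01 and 2.40 for Npm1, which encodes nucleophosmin. The REV-ERBα region of Polr1a, the gene of the catalytic subunit of RNA polymerase I, had 11.5 and 15.2 and was nearer to Ptcd3, which starts 138 bp from it.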

How the data were processed

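Gastrocnemius ChIP-seq peaks of BMAL1 and RNAP2 (ZT4) and REV-ERBα (ZT8), 2 replicates each, were analyzed as deposited. Per the methods and labels, the authors aligned reads to mm10 with BWA (7.12), removed duplicates and multiply mapped reads, down-sampled replicates, and called peaks per sample against input with MACS2 (2.1.1) at a p of 0.05. Each deposited list gives a ratio (fold enrichment), a −log10 p and a −log10 q per peak. Read depth behind a peak was not used here. Removal of multiply mapped reads can lower signal in genes with near-identical copies, as ribosomal protein genes have.

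Peaks of a factor overlapping by at least 1 bp were merged and assigned to GENCODE M21 protein-coding genes within 10 kb of any TSS (Python 3.11.15). Code was tested on simulated peaks. The members and gene lists were chosen with earlier results of these data known. Motifs, run length, printed windows and the 5 kb gene limit were chosen after the data and promoters were seen. Named genes were members with a BMAL1 or REV-ERBα region, the 10 strongest and 5 weakest for RNAP2, those without RNAP2, paralogs, stalk genes, and listed related genes with a BMAL1 or REV-ERBα region, and a few others were named after their values were seen. The study calls the replicates biological, and how many animals each holds is not given in the sources used here. Alternatives were distance, thresholds, overlap, list size, annotation, assignment and leaving out replicates. The values of a few genes are not reported here.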

Additional observations from a re-analysis of the deposited data

How the results depend on the processing

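RNAP2 was found at 65 to 83 members under every alternative tried, and the other genes stayed below the members in each. The gap was smaller in single lists. Without replicate 1 the shares were 96.4% of members and 83.9% of the other genes, and without replicate 2 they were 98.8% and 72.9%. The median strength was 8.12 without replicate 1 and 14.9 without replicate 2. BMAL1 fell from 3 members to 1 within 1 kb (Rpl23), and to 1 (Rpl18) at a −log10 p of at least 3, at a −log10 q of at least 1.3, at 50% overlap and with lists of equal size. Leaving out a replicate gave 20 to 64 members for BMAL1 and 22 to 26 for REV-ERBα. REV-ERBα fell from 4 members to 2 within 1 kb and with assignment to the nearest TSS, and the shared site count went to 0 under the same settings. The BMAL1 share exceeded that of the other genes at the stricter p (1.19% against 0.651%) and q (1.19% against 0.253%), as did the REV-ERBα share at the stricter q (3.57% against 2.91%) and the shared site share at both (1.19% against 0.953% and 0.35%), so no order holds for these counts. With 100 bases before the start, the E-box share was 2.6% (6.64% of other RNAP2 promoters), so it moved from level with them to below, the nuclear receptor core was 6.49% (5.98%) and the GC box 44.2% (53.4%). No paired analysis was possible because no test between samples was made and each factor has its own antibody. The comparison with genes of at most 5 kb was chosen after seeing the data. Peak strength depends on depth, and read counts behind the peaks were not used here.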

Other observations

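Start sites shared with a neighbor were as common among ribosomal protein genes as elsewhere. A protein-coding gene on the opposite strand started within 1 kb of 17 of the 84 members (20.2%), against 21.3% of the 8291 other genes with an RNAP2 region. The closest pairs were Rps28 with Ndufa7, a subunit of respiratory complex I, at 10 bp, Rpl12 with Lrsam1 and Rps25 with Trappc4 at 33 bp each, and Rps27 with Rab13 at 44 bp. An RNAP2 peak at such a start cannot be assigned to either gene of the pair from these lists. This includes the peaks of Rps2, 53 bp from Rnf151, and of Rpl36al, 74 bp from Mgat2.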
